A study of Drosophila melanogaster with 4 samples.

Results

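The mitochondrial ribosome makes the few proteins that are encoded by mitochondrial DNA, all of them subunits of the respiratory chain and the ATP synthase. Its rRNAs come from the mitochondrial genome, whereas its proteins are encoded in the nucleus, made in the cytoplasm and imported. The large subunit (proteins named mRpL) joins amino acids, and the small subunit (mRpS) reads the mRNA. Mitochondria multiply during fly oogenesis and are passed to the egg, and germ cells that differentiate are known to build up their mitochondrial membranes. The genes described here are those whose FlyBase symbol starts with mRpL or mRpS and a digit, with at least 10 counts summed over the 4 libraries. There were 70 such genes among the 17023 genes of the count tables, 46 of the large and 24 of the small subunit. All 70 also had enough counts to be tested. A further member, *mRpL53*, was listed at 0 counts in all 4 libraries. Its whole exonic length of 829 bases is shared with the same-strand gene *CG33155*, so its reads could not be told apart from those of that gene. The lowest total above the minimum was 589 counts, of *mRpS24*. *mRpS5* and *mRpS34* carry identifiers that were not matched in the tables, and are not analysed here. *tko* and *bonsai*, the fly genes of the mitochondrial S12 and S15 proteins, fall outside the symbol rule and are given separately.

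Poly(A) RNA came from ovaries of *Drosophila melanogaster* females at 2 to 3 days after eclosion. The first group carried UAS-Dcr2, nosGAL4 and an RNAi hairpin against *Nipped-A*, which encodes the scaffold subunit of the Tip60 and SAGA acetyltransferase complexes. The other group carried UAS-Dcr2, nosGAL4 and a hairpin against *bam*, whose product germline stem cell daughters need in order to differentiate. nosGAL4 drives the hairpin in germ cells, Dcr2 strengthens RNAi, and whole ovaries with their somatic cells were sequenced. The series asks how the Tip60 complex bears on the expression of a germline differentiation factor. There were 2 libraries per group and no group without a hairpin, so each level is read against the other knockdown. Totals were 47825006 and 21193517 counts for *Nipped-A* RNAi libraries 1 and 2, against 33844807 and 23866988 counts for *bam* RNAi libraries 1 and 2. *bam* had 29.0 and 16.9 CPM (gene counts relative to the scaled library size) under the *Nipped-A* RNAi label, against 4.70 and 6.52 CPM under the *bam* RNAi label. *Nipped-A* had 430 and 438 CPM under the *Nipped-A* RNAi label, against 287 and 247 CPM under the *bam* RNAi label. The *Nipped-A* transcript was thus higher under its own label (log2 fold change 0.70 with a standard error of 0.14, edgeR adjusted p = 0.0287), a call lost with a length correction (0.28, adjusted p = 0.155), with upper-quartile scaling (0.49, adjusted p = 0.0524) and with *bam* RNAi library 1 or 2 left out (adjusted p = 0.172 and 0.307). Groups are therefore named by label throughout, and a direction says nothing about a reduced *Nipped-A* transcript. The germ cell genes *osk* and *nanos* and the follicle cell genes *Yp1* to *Yp3* had counts in all 4 libraries.

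Most transcripts of the mitochondrial ribosome had lower estimates under the *Nipped-A* RNAi label, and a minority of the genes passed the test. The 70 genes had a median log2 fold change of -0.58 (*Nipped-A* RNAi over *bam* RNAi), or 0.668 times the level under the *bam* RNAi label, with a middle range of -0.72 to -0.42. Of the 70 estimates 69 were below 0, where 50.1% of all genes tested were. At 59 genes both libraries labelled *Nipped-A* RNAi lay below both labelled *bam* RNAi, and at none did they lie above; among all genes tested 35.3% were separated downwards and 33.6% upwards. 12 of the 70 fell, which is 17.1%, where 8.31% of all 10245 genes tested fell (two-sided quasi-likelihood test of edgeR, threshold of 0.05 after Benjamini-Hochberg adjustment). None rose in edgeR, DESeq2 or limma-voom, and none was higher with an unadjusted p under 0.05 in edgeR, which called 11.3% of all genes higher. With the trend of fold change on gene length removed, the median was -0.20, 55 of the 70 estimates were below 0 and 1 gene was called, where 6.16% of all genes fell. The calls also depended on the libraries used: with *bam* RNAi library 1 left out edgeR called 0 of the 70 (12 with an unadjusted p under 0.05; 2 by DESeq2), and with library 2 left out again 0 (2 with an unadjusted p under 0.05; 1 by DESeq2), in each case with 0 calls among all genes. With *Nipped-A* RNAi library 1 left out 43 of the 70 were called lower (16.5% of all genes), and with library 2 left out 33 were (15.7% of all genes). In each of these 4 fits a group has 1 library, which is assumed to vary like the pair of the other group, so their counts are not on a par with those of the whole set. DESeq2 called 32 of the 70 lower, where it called 14.1% of all genes, and limma-voom 11, where it called 8.30%. RLE scaling, library size alone and a filter of 10 counts gave 8 falls each (7.58%, 7.41% and 6.50% of all genes fell), a filter of 1 CPM and robust moderation 19 each (10.8% and 9.61%), and upper-quartile scaling 36 (15.2%). In whole ovaries fewer cells of a type and less RNA per cell cannot be told apart.

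**Figure D1:**
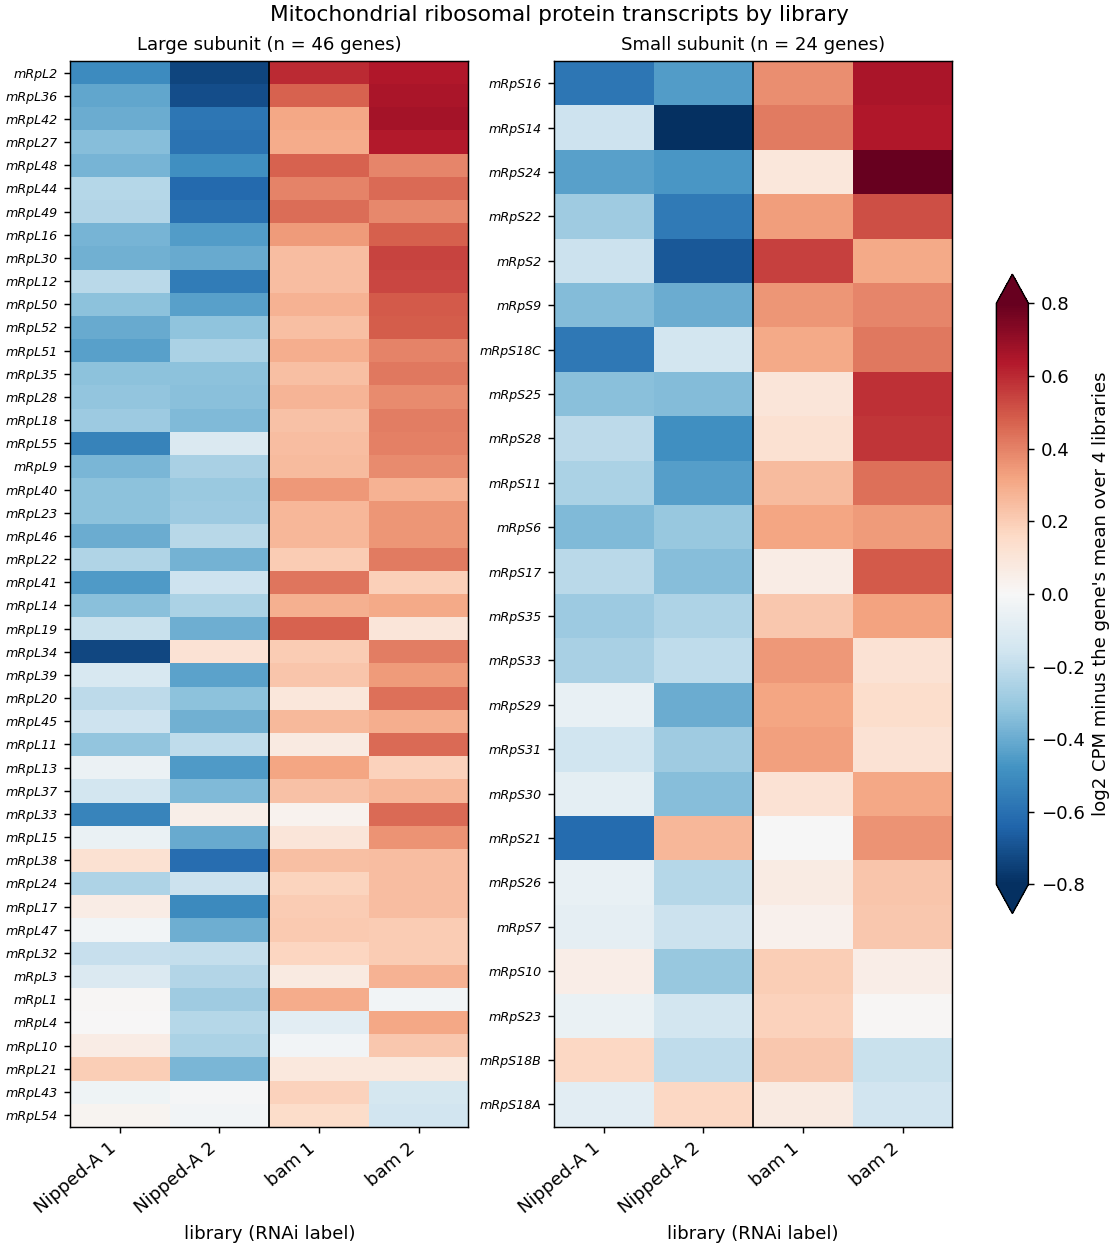
Heat map of the 70 genes (rows, large subunit left and small subunit right) in the 4 libraries (columns, *Nipped-A* RNAi left of the line and *bam* RNAi right of it), coloured by log2 CPM minus the gene's own mean over the 4 libraries. Most rows are blue in both libraries labelled *Nipped-A* RNAi and red in both labelled *bam* RNAi, as at the 59 fully separated genes, while the rows at the bottom, such as *mRpL54* and *mRpS18A*, have no such split.

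The medians of both subunits lay close together. Of the large subunit 9 of 46 genes fell (19.6%) and of the small subunit 3 of 24 (12.5%), where 8.31% of all genes tested fell. The large subunit had a median log2 fold change of -0.60 and the small subunit one of -0.55. Their difference was -0.05. For scale, the large minus small median log2 CPM was taken per library, and its variances within the groups were added. The root of that sum was 0.110, larger in size than -0.05, which is a description and not a test. All 46 estimates of the large subunit and 23 of the 24 of the small subunit were below 0. The summed level of the large subunit was 1356 and 1235 CPM under the *Nipped-A* RNAi label, against 1873 and 2014 CPM under the *bam* RNAi label. The summed level of the small subunit was 736 and 668 CPM under the *Nipped-A* RNAi label, against 972 and 1033 CPM under the *bam* RNAi label. Neither sum overlapped between the groups. The ratio of the large to the small sum was 1.84 and 1.85 under the *Nipped-A* RNAi label, against 1.93 and 1.95 under the *bam* RNAi label. These ratios did not overlap between the groups either, unlike the close medians, and their difference was not tested. Together the 70 genes took 0.215% and 0.192% of the counts under the *Nipped-A* RNAi label, against 0.279% and 0.300% under the *bam* RNAi label. In mammalian structures the proteins named S18A and S30 sit in the large subunit; with *mRpS18A* and *mRpS30* counted there, both counts of calls stayed and the difference of the medians was 0.03.

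**Figure D2:**
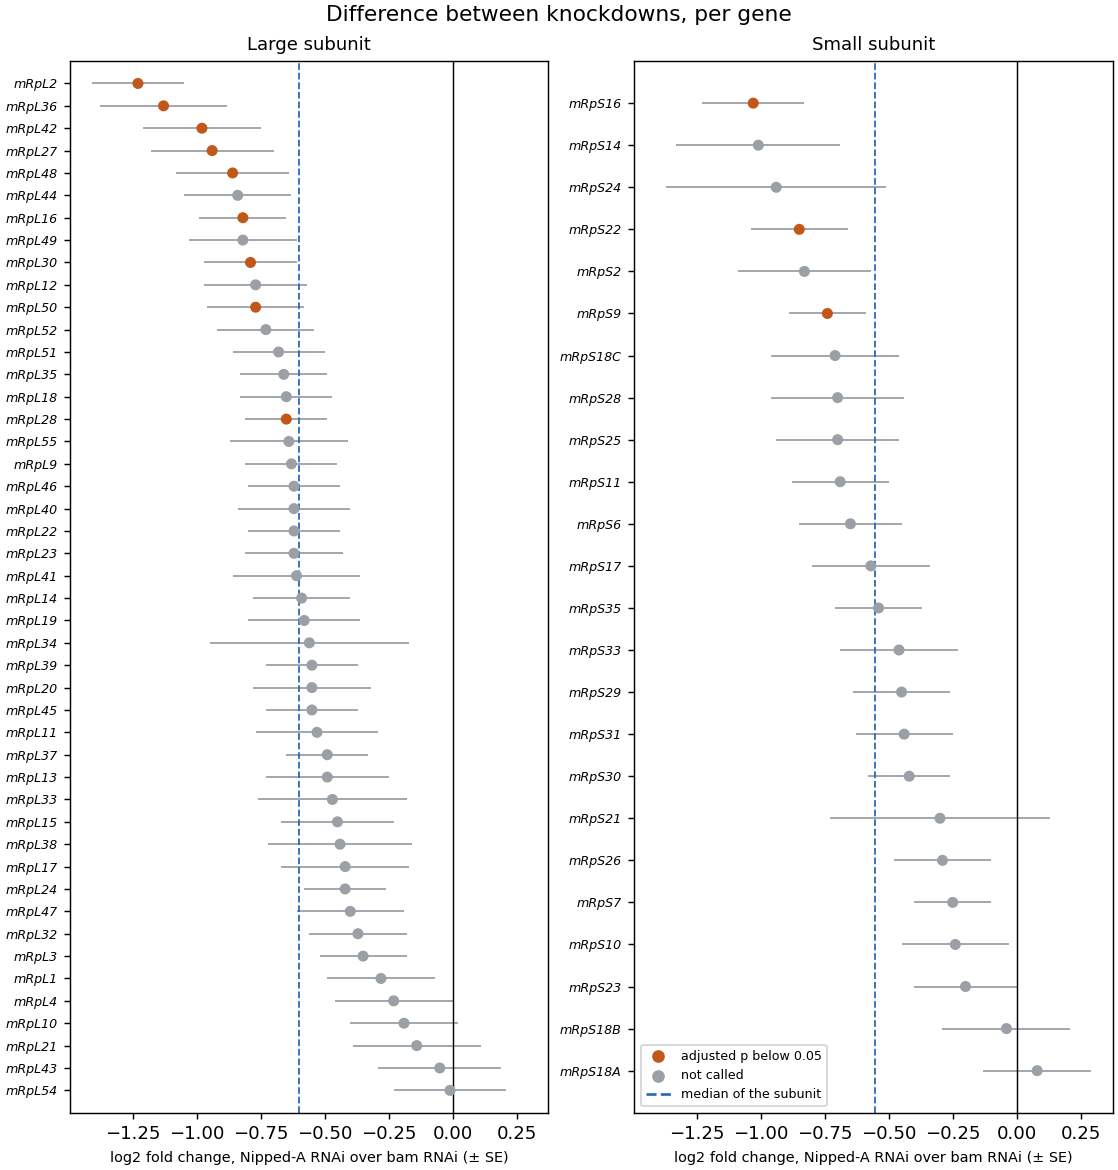
Log2 fold change of each gene, *Nipped-A* RNAi over *bam* RNAi, with its standard error (bars), for the large subunit (left, 46 genes) and the small subunit (right, 24 genes); orange points are genes past the threshold and the dashed line is the median of the subunit. The medians lie at -0.60 and -0.55, and *mRpS18A* is the single gene with an estimate above 0.

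The proteins are taken below in lists by place in the ribosome, after mammalian structures. A listed protein was given a single place, although it may reach others. Among the large subunit genes, the largest fall was that of *mRpL2* (FBgn0036135, dm6 chromosome 3L, 11120847 to 11122041), whose protein lines the peptidyl transferase centre. It had 29.1 and 24.8 CPM under the *Nipped-A* RNAi label, against 62.4 and 64.4 CPM under the *bam* RNAi label, or 26.9 ± 3.05 against 63.4 ± 1.42 CPM (mean ± SD, n = 2 each). The groups were far apart and the libraries of each were close. Its log2 fold change was -1.23 ± 0.18, or 57.5% lower (edgeR adjusted p = 0.0173). Of the 5 listed genes of the peptidyl transferase centre 3 fell, where 19.6% of the whole subunit and 8.31% of all genes tested fell. The median of the 5 was -0.82 against -0.60 for the whole subunit. *mRpL16* (chromosome X, 1890256 to 1891482), which helps to position tRNA, had 35.8 and 33.9 CPM under the *Nipped-A* RNAi label, against 58.6 and 64.6 CPM under the *bam* RNAi label (-0.82 ± 0.17, edgeR adjusted p = 0.0320). *mRpL27*, whose bacterial counterpart reaches towards the tRNA end at the catalytic site, had 16.6 and 14 CPM under the *Nipped-A* RNAi label, against 25.9 and 32.7 CPM under the *bam* RNAi label (-0.94 ± 0.24, edgeR adjusted p = 0.0483). The call of *mRpL27* was lost with limma-voom (adjusted p = 0.0562), RLE scaling (0.0556), library size alone (0.0573) and a filter of 10 counts (0.0550). Of the 5 genes limma-voom called 2, and 1 was called with the length trend removed. The other genes of this list were not called: *mRpL3* had an estimate of -0.35 ± 0.17 and *mRpL4*, whose groups overlapped, one of -0.23 ± 0.23.

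The stalk, where translation factors dock, had no call among its 3 genes (edgeR; 1 with an unadjusted p under 0.05, 1 by DESeq2 and 0 by limma-voom). *mRpL12*, the stalk protein itself and the most abundant of the 70 transcripts per length over the 4 libraries, had 56.0 and 44.1 CPM under the *Nipped-A* RNAi label, against 77.3 and 94.2 CPM under the *bam* RNAi label. Its groups did not overlap, and its log2 fold change of -0.77 ± 0.20 just missed the threshold (edgeR adjusted p = 0.0518). *mRpL10*, which anchors the stalk, had 34.8 and 28.1 CPM under the *Nipped-A* RNAi label and 33.0 and 38.8 CPM under the *bam* RNAi label, so its groups overlapped (-0.19 ± 0.21). *mRpL11* at the stalk base had an estimate of -0.53 ± 0.24.

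Around the tunnel through which new proteins leave, all 6 listed genes (*mRpL17*, *mRpL22*, *mRpL23*, *mRpL24*, *mRpL45* and *mRpL47*) were separated downwards, with estimates from -0.62 to -0.40. So were 84.8% of the large subunit genes and 35.3% of all genes tested. This list leaves out *mRpL4*, placed above with the peptidyl transferase centre, whose groups overlapped (-0.23 ± 0.23). None of the 6 was called by edgeR (4 with an unadjusted p under 0.05, 3 by DESeq2, 0 by limma-voom). *mRpL45*, known from mammals as a contact to the inner membrane, had 40.8 and 35.1 CPM under the *Nipped-A* RNAi label, against 54.9 and 56.0 CPM under the *bam* RNAi label (-0.55 ± 0.18, edgeR adjusted p = 0.0852). Of *mRpL17* 23.6% of the exonic bases are shared with the opposite-strand gene *CG34263*. The 5 listed genes of the central protuberance, the knob that faces the small subunit, were also all separated downwards, again beside 84.8% of the large subunit. Of these 5 genes *mRpL48* fell, at 13.9 and 12.8 CPM under the *Nipped-A* RNAi label, against 24.9 and 23.5 CPM under the *bam* RNAi label (-0.86 ± 0.22, edgeR adjusted p = 0.0483). *mRpL48* lost its call with RLE scaling (edgeR adjusted p = 0.0552), library size alone (0.0577), a filter of 10 counts (0.0618) and the length trend removed (0.216). It shares 20.8% of its exonic bases with the opposite-strand gene *frtz*, and since the strand setting of the counting is not given in the sources used here, some of its reads may belong to that gene. *mRpL38*, *mRpL40*, *mRpL46* and *mRpL18* had estimates from -0.65 to -0.44.

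The large subunit had 5 further calls. *mRpL36* (chromosome 3L, 8124584 to 8125132), the counterpart of a small zinc-binding bacterial protein, had 10.8 and 8.80 CPM under the *Nipped-A* RNAi label, against 20.0 and 22.7 CPM under the *bam* RNAi label (-1.13 ± 0.25, edgeR adjusted p = 0.0370). *mRpL42*, a protein that bacteria lack, had 17.2 and 15.2 CPM under the *Nipped-A* RNAi label, against 28.1 and 36 CPM under the *bam* RNAi label (-0.98 ± 0.23, edgeR adjusted p = 0.0411). *mRpL30* had 37.6 and 37.1 CPM under the *Nipped-A* RNAi label, against 58.3 and 71.3 CPM under the *bam* RNAi label (-0.79 ± 0.18). In each of these 3 genes every library labelled *Nipped-A* RNAi was below every library labelled *bam* RNAi. The same held at 84.8% of the large subunit genes and 35.3% of all genes tested. All 3 lost their call, in this order, with the length trend removed (edgeR adjusted p = 0.204, 0.202 and 0.213). *mRpL28* (-0.65 ± 0.16) and *mRpL50* (-0.77 ± 0.19) completed the calls. Both lost their call, in this order, with RLE scaling (edgeR adjusted p = 0.0574 and 0.0570), library size alone (0.0611 and 0.0592) and a filter of 10 counts (0.0587 and 0.0569). The same held with the length trend removed (edgeR adjusted p = 0.149 and 0.257).

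A few large subunit genes had estimates near 0 or overlapping groups. *mRpL54*, which bacteria lack, had 21.4 and 20.8 CPM under the *Nipped-A* RNAi label and 23.4 and 19.0 CPM under the *bam* RNAi label (-0.01 ± 0.22), and *mRpL43* had 16.7 and 17.0 CPM and 19.4 and 15.5 CPM in the same order (-0.05 ± 0.24). In both genes the libraries of the groups interleaved. The sign of *mRpL54* and *mRpL43* is not fixed by these data: each was above 0 under at least 1 other setting, *mRpL54* for example at 0.04 with RLE scaling. *mRpL21* had 32.3 and 21.8 CPM under the *Nipped-A* RNAi label, against 29.8 and 29.9 CPM under the *bam* RNAi label, so that *Nipped-A* RNAi library 1 stood above and library 2 below both libraries labelled *bam* RNAi (-0.14 ± 0.25). *mRpL33* had 19.3 and 28.7 CPM against 28.3 and 38.1 CPM in the same order, with overlapping groups (-0.47 ± 0.29).

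In the small subunit 3 genes fell. *mRpS16* (FBgn0033907, chromosome 2R, 14172986 to 14173596), the counterpart of a bacterial protein needed for assembly of the subunit body, had 20.3 and 22.2 CPM under the *Nipped-A* RNAi label, against 39.2 and 47.6 CPM under the *bam* RNAi label, or 21.2 ± 1.40 against 43.4 ± 5.98 CPM (mean ± SD, n = 2 each). Its log2 fold change was -1.03 ± 0.20, or 51.0% lower (edgeR adjusted p = 0.0293). *mRpS22* (chromosome 3R, 27916908 to 27918248), which bacteria lack, had 45.3 and 37.3 CPM under the *Nipped-A* RNAi label, against 69.7 and 78.9 CPM under the *bam* RNAi label (-0.85 ± 0.19, edgeR adjusted p = 0.0358). *mRpS9*, a protein of the head of the subunit, had 49.2 and 47.7 CPM under the *Nipped-A* RNAi label, against 80.1 and 82.2 CPM under the *bam* RNAi label (-0.74 ± 0.15, edgeR adjusted p = 0.0300). All 3 were separated downwards, as were 83.3% of the small subunit genes and 35.3% of all genes tested. With the length trend removed all 3 lost their call (edgeR adjusted p = 0.105 for *mRpS16*, 0.0694 for *mRpS22* and 0.0694 for *mRpS9*). *mRpS9* shares 25.1% of its exonic bases with the opposite-strand gene *ArgRS-m*, the mitochondrial arginyl-tRNA synthetase gene.

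Of the 8 listed genes of the small subunit head, where the mRNA enters and the tRNAs move, *mRpS9* was the single call, and the median was -0.46. *mRpS7*, the most abundant small subunit transcript per length, had 72.3 and 67.6 CPM under the *Nipped-A* RNAi label, against 77.8 and 88.2 CPM under the *bam* RNAi label, a narrow gap that was not called (-0.25 ± 0.15). *mRpS14* had 14.6 and 8.85 CPM under the *Nipped-A* RNAi label, against 21.9 and 25.6 CPM under the *bam* RNAi label (-1.01 ± 0.32, edgeR adjusted p = 0.0786); 32% of its exonic bases lie in an exon of the opposite-strand gene *Naa15-16*. *mRpS29*, the GTP-binding protein known as DAP3 in humans, had an estimate of -0.45 ± 0.19. All 7 measured genes of the decoding region and body were separated downwards, as were 83.3% of the 24 small subunit genes and 35.3% of all genes tested. Of the 7 genes 2 fell, *mRpS16* and *tko* (28.6%, where 8.31% of all genes fell), with a median of -0.69 over the 7. *tko* (chromosome X, 2442313 to 2443976), which encodes the decoding-site protein S12 and whose point mutation makes flies sensitive to mechanical shock, had 24.6 and 26.1 CPM under the *Nipped-A* RNAi label, against 40.2 and 44.3 CPM under the *bam* RNAi label (-0.73 ± 0.19, edgeR adjusted p = 0.0488). That call was lost with RLE scaling (adjusted p = 0.0574), library size alone (0.0592), a filter of 10 counts (0.0586) and the length trend removed (0.0916). *bonsai*, the S15 gene, had 48.6 and 48.5 CPM under the *Nipped-A* RNAi label, against 55.0 and 72.1 CPM under the *bam* RNAi label (-0.39 ± 0.20). *mRpS11* of the platform had an estimate of -0.69 ± 0.19.

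The 3 genes named for S18 had unlike values. *mRpS18C*, the counterpart of bacterial S18, had 12.2 and 16.4 CPM under the *Nipped-A* RNAi label, against 22.4 and 24.3 CPM under the *bam* RNAi label (-0.71 ± 0.25, edgeR adjusted p = 0.101). *mRpS18B* had 25.1 and 19.5 CPM under the *Nipped-A* RNAi label and 26 and 19.8 CPM under the *bam* RNAi label (-0.04 ± 0.25), and *mRpS18A* had 27.0 and 32.2 CPM and 30.1 and 25.8 CPM in the same order (0.08 ± 0.21). The groups were apart for *mRpS18C* and overlapped for *mRpS18B* and *mRpS18A*; none of the 3 was called, and a difference between their fold changes was not tested. The sign of *mRpS18A* turned to -0.13 with upper-quartile scaling and that of *mRpS18B* to 0.01 with RLE scaling. *mRpS30* had 98.6 and 82.2 CPM under the *Nipped-A* RNAi label, against 113 and 129 CPM under the *bam* RNAi label (-0.42 ± 0.16, edgeR adjusted p = 0.122).

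Per length, the 70 transcripts ranged from 5.6 to 76.3 FPKM (CPM per kilobase of exon) under the *Nipped-A* RNAi label and from 10.8 to 116 FPKM under the *bam* RNAi label. The median over genes was 31.9 FPKM under the *Nipped-A* RNAi label and 45.8 FPKM under the *bam* RNAi label, with the middle range of the genes between 25.8 and 38.3 FPKM and between 38.2 and 58.2 FPKM in the same order. The large and small subunits stood at nearly the same level: 32.1 and 31.8 FPKM under the *Nipped-A* RNAi label, against 46.4 and 45.3 FPKM under the *bam* RNAi label. For comparison, the 83 cytoplasmic ribosomal protein genes tested had medians of 1072 FPKM under the *Nipped-A* RNAi label and 1777 FPKM under the *bam* RNAi label. The order of levels was largely shared (Spearman correlation across the 70 genes 0.86 between the group means, 0.89 between the libraries labelled *Nipped-A* RNAi and 0.92 between those labelled *bam* RNAi; the genes share libraries, so these are descriptions only).

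At the top, *mRpL12* had 75.9 and 59.8 FPKM under the *Nipped-A* RNAi label, against 105 and 128 FPKM under the *bam* RNAi label, and *mRpS7* had 78.9 and 73.7 FPKM under the *Nipped-A* RNAi label, against 84.8 and 96.2 FPKM under the *bam* RNAi label. *mRpL33* (55.4 and 82.2 against 81.0 and 109 FPKM) and *mRpL30* (54.1 and 53.3 against 83.8 and 102 FPKM, *Nipped-A* RNAi first in both) came next in the large subunit. The order at the top differed between the groups: *mRpS7* had the higher mean under the *Nipped-A* RNAi label and *mRpL12* under the *bam* RNAi label. At the bottom, *mRpS24* had 5.66 and 5.54 FPKM under the *Nipped-A* RNAi label, against 8.13 and 13.4 FPKM under the *bam* RNAi label, and *mRpS21* had 9.59 and 17.6 FPKM under the *Nipped-A* RNAi label, against 14.6 and 18.8 FPKM under the *bam* RNAi label. Both low genes share about as many exonic bases with an opposite-strand gene as they have to themselves (55.3% of *mRpS24* with *TBC1d7* and 48% of *mRpS21* with *CG8870*), so their low levels are uncertain. By the mean over the 4 libraries the lowest large subunit transcripts with counts were *mRpL21*, *mRpL43* and *mRpL48*, with group means from 16 to 21.5 FPKM under the *Nipped-A* RNAi label and from 17.6 to 30.6 FPKM under the *bam* RNAi label; within a single group the order differed, and *mRpL27* at 16.4 FPKM came second lowest under the *Nipped-A* RNAi label.

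**Figure D3:**
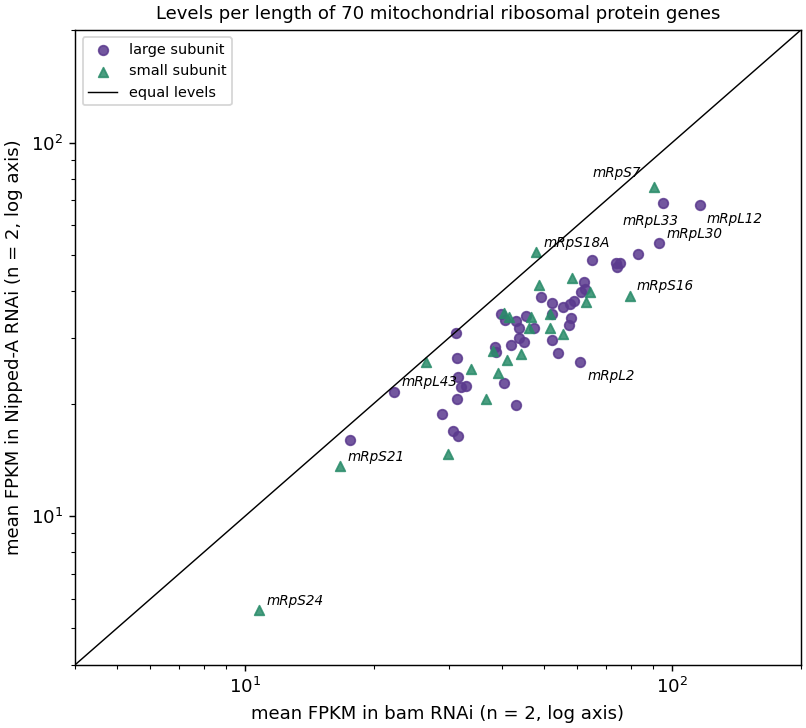
Mean level per length of each gene under the *Nipped-A* RNAi label (vertical, FPKM, log axis, n = 2) against that under the *bam* RNAi label (horizontal, FPKM, log axis, n = 2), with circles for the large and triangles for the small subunit and a line of equal levels. Nearly all points lie below the line at every level, with *mRpS18A* above it, *mRpL12* and *mRpS7* at the upper end and *mRpS24* at 5.6 and 10.8 FPKM at the lower end.

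Classes by the number in the symbol and by chromosome arm had medians close to each other. The numbers to 36 in the large and to 21 in the small subunit follow bacterial ribosomal protein names. The 41 genes with these numbers had a median log2 fold change of -0.58 with 8 falls (19.5%). The 29 genes with higher numbers had a median of -0.61 with 4 falls (13.8%), where 8.31% of all genes tested fell. The genes lie on all 5 large chromosome arms, with 21 on 3R, 15 on 3L, 12 on 2L and 11 each on 2R and X, and arm medians from -0.62 to -0.45. All genes tested on these arms had medians from -0.04 to 0.05. Differences between these classes were not tested.

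Across all genes tested, fold change went with gene length. Members were short, with a median exonic length of 783 bases, where all genes tested had 1998, and short genes in general were lower under the *Nipped-A* RNAi label. The 6 members of up to 500 bases had a median of -0.52, the same as all 303 genes of that length. The 26 members of 500 to 750 bases had a median of -0.65 and all 535 genes of that length one of -0.56; the 17 members of 750 to 1000 bases had -0.62 against -0.38 for all 725 genes, and the 19 members of 1000 to 1500 bases -0.54 against -0.24 for all 1619 genes. Of all genes of 500 to 750 bases 76.3% had an estimate below 0. With the trend on length taken out of each library, the median of the 70 genes was -0.20, where all genes had 0.05, and 55 of the 70 estimates were below 0. A single member was then called, *mRpL2* (-0.91, edgeR adjusted p = 0.0352), where 6.16% of all genes were called lower. Both subunits had a median of -0.20 in that fit. Among the members themselves length and fold change went together less closely than among all genes (Spearman correlation 0.18 across the 70 genes and 0.30 across 9536 genes, given as a description, since genes share the libraries). What makes short genes differ between the labels was not tested.

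**Figure D4:**
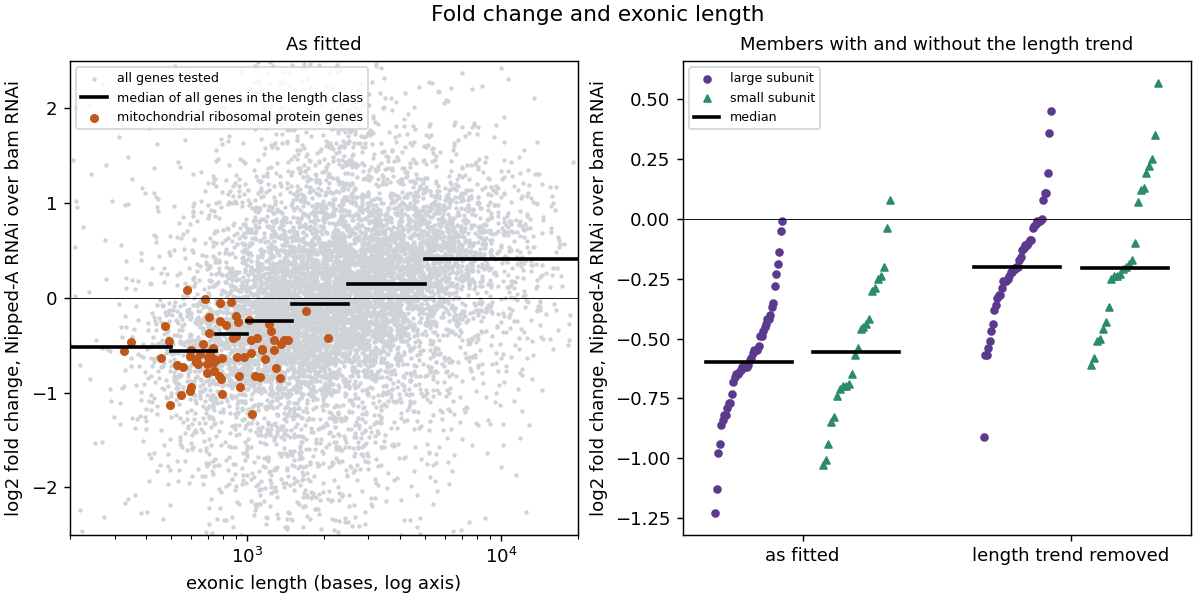
Left, log2 fold change (*Nipped-A* RNAi over *bam* RNAi) against exonic length (bases, log axis) for all genes tested (grey; genes beyond the ends of the axes are not drawn), with the median of each length class (black bars, from -0.56 at 500 to 750 bases to 0.41 above 5000 bases) and the 70 genes in orange. Right, the 70 genes by subunit as fitted and with the length trend removed; black bars are medians, at -0.60 and -0.55 as fitted and at -0.20 for both subunits after removal.

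Replicates also differed by length. Between the libraries labelled *Nipped-A* RNAi, the log2 ratio of library 1 to library 2 had a median size of 0.18 over the 70 genes and ranged from -0.88 to 0.73, and it correlated with exonic length at a Spearman value of 0.60 (0.08 across all genes). The 4 shortest members, among them *mRpL34* (-0.84) and *mRpS21* (-0.88), were higher in library 2, and long ones such as *mRpL38* (0.73) were higher in library 1. Between those labelled *bam* RNAi the same ratio had a median size of 0.18 and ranged from -0.72 to 0.39. It correlated with length at 0.26, close to the 0.28 across all genes. The median difference between the groups, -0.58, was larger than these median differences between replicates.

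Other nuclear genes that serve mitochondrial gene expression gave 1 call in 3 lists. Of 9 mitochondrial translation factor genes tested, edgeR called 0 (3 lower and 1 higher with an unadjusted p under 0.05; DESeq2 called 2 lower and 1 higher, limma-voom 0), with a median of -0.44. *mEFTu1*, an elongation factor that brings aminoacyl-tRNA to the ribosome, had 159 and 135 CPM under the *Nipped-A* RNAi label, against 211 and 217 CPM under the *bam* RNAi label (-0.55 ± 0.14, edgeR adjusted p = 0.0518). *mRF1*, a release factor, ran the other way without a call, at 20.9 and 16.8 CPM under the *Nipped-A* RNAi label, against 11.8 and 9.84 CPM under the *bam* RNAi label (0.80 ± 0.26, edgeR adjusted p = 0.0873). Of 14 mitochondrial aminoacyl-tRNA synthetase genes edgeR called 0 (1 lower with an unadjusted p under 0.05, 0 by DESeq2 and limma-voom), with a median of -0.21. Of 14 genes of mitochondrial DNA and transcript maintenance 1 fell, which is 7.14%, against 8.31% of all genes, with a median of -0.13; DESeq2 called 1 lower and 1 higher, limma-voom 1 lower. That gene, *Lrpprc2*, of the LRPPRC family of mitochondrial RNA-binding proteins, had 42.3 and 35.4 CPM under the *Nipped-A* RNAi label, against 63.3 and 75.8 CPM under the *bam* RNAi label (-0.84 ± 0.19, edgeR adjusted p = 0.0398). These genes were longer than the ribosomal ones, with median exonic lengths of 1526, 2650 and 2563 bases in the 3 lists; with the length trend removed their medians were -0.05, -0.20 and -0.09.

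All 37 genes of the mitochondrial genome, both rRNAs of the mitochondrial ribosome included, were listed at 0 in every library, so the tables hold no measure of the RNA that these proteins bind. Of 66 oxidative phosphorylation genes tested 49 fell (74.2%) and none rose (0 higher with an unadjusted p under 0.05 and by DESeq2 and limma-voom). Their median was -0.89, or -0.53 with the length trend removed and 27 falls. Among all genes tested 8.31% fell as fitted and 6.16% with the length trend removed. *ATPsyngamma*, the central stalk subunit of the ATP synthase, had 257 and 238 CPM under the *Nipped-A* RNAi label, against 495 and 492 CPM under the *bam* RNAi label (-1.0 ± 0.13, edgeR adjusted p = 0.0140). Of 83 cytoplasmic ribosomal protein genes 66 fell (79.5%) and none rose (0 higher by the same 3 measures). Their median was -0.79, or -0.42 with the length trend removed and 23 falls. *RpS5a* among them had 1036 and 1103 CPM under the *Nipped-A* RNAi label, against 2513 and 2686 CPM under the *bam* RNAi label (-1.28 ± 0.13, edgeR adjusted p = 0.00996). The list also held *RpS19b*, one of a pair of S19 genes, with 5.21 and 7.07 CPM under the *Nipped-A* RNAi label, against 87.1 and 96.9 CPM under the *bam* RNAi label (-3.91 ± 0.24). Median levels of these lists were higher, at 6.27 and 6.44 log2 CPM for oxidative phosphorylation genes and 9.90 in both libraries for cytoplasmic ribosomal protein genes under the *Nipped-A* RNAi label, against 4.80 and 4.63 log2 CPM for the 70 genes. With either *bam* RNAi library left out edgeR called none of these genes, as it called no gene at all. The difference between lists was not tested.

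Markers of several cell types moved beside these genes. Among all genes tested 11.3% rose and 8.31% fell. The 8 listed muscle sheath genes all fell, with summed levels of 7392 and 8784 CPM under the *Nipped-A* RNAi label, against 26634 and 26766 CPM under the *bam* RNAi label, a median log2 fold change of -1.58, and none at 0. Of 5 oocyte genes 4 rose, with sums of 2159 and 1186 CPM under the *Nipped-A* RNAi label, against 298 and 297 CPM under the *bam* RNAi label. Of 6 germ cell genes 3 rose and 1 fell in edgeR, and limma-voom called 1 higher and 1 lower. The gene *osk* is in both the oocyte and the germ cell list and counts in each. Germ cell sums were 2171 and 1450 CPM under the *Nipped-A* RNAi label, against 1130 and 1034 CPM under the *bam* RNAi label. Of 10 follicle cell genes 7 rose and 2 fell, with follicle sums of 18183 and 14713 CPM under the *Nipped-A* RNAi label, against 7031 and 7751 CPM under the *bam* RNAi label. Of 5 hemocyte genes 3 fell and 1 rose (sums of 1892 and 2050 against 5773 and 5010 CPM, *Nipped-A* RNAi first). Of 5 fat body genes 4 fell and 1 rose, with sums of 1249 and 1317 CPM under the *Nipped-A* RNAi label, against 625 and 556 CPM under the *bam* RNAi label, sums carried by *apolpp* (1247 and 1316 CPM under the *Nipped-A* RNAi label), the gene that rose; *Fbp1*, *Fbp2* and *Lsp1alpha* were at 0 in *Nipped-A* RNAi library 2. The flight muscle actin gene *Act88F* had 0.915 and 0.187 CPM under the *Nipped-A* RNAi label, against 86.4 and 80.9 CPM under the *bam* RNAi label. The 8 gut genes all rose in edgeR and DESeq2, while limma-voom called 2 of them, with sums of 874 and 2808 CPM under the *Nipped-A* RNAi label, against 3.77 and 4.22 CPM under the *bam* RNAi label, where *Jon65Aii* and *LysE* were at 0 in both libraries. The part of these changes in the lower levels of the mitochondrial ribosomal genes was not tested.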

How the data were processed

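For each of the 4 libraries the values used are raw gene counts as deposited by the authors. The submitters' processing notes name the dm6 build, the aligner HISAT2 (2.1.0), the counter featureCounts (1.6.0.4) and edgeR (3.16.5); libraries were directional, per the labels' protocols. Which annotation and strand setting were used, and how reads with several positions were handled, is not given in the sources used here. Positions and exonic lengths came from Ensembl gene models on dm6 coordinates, and symbols from a list of gene names or, failing that, these models. Of the 17023 identifiers 16647 had a symbol and 376 had none. Identifiers without a symbol were not left out of the tests for that reason. Of the 10245 genes tested, 10032 had an exonic length and entered the fit with the length trend removed. Genes were kept with filterByExpr, scaled with TMM and tested with edgeR 4.0.16 in R 4.3.3 (glmQLFit and glmQLFTest, two-sided, all 10245 genes in 1 fit, Benjamini-Hochberg threshold 0.05). A standard error is the size of the log2 fold change over the root of F. FPKM values are scaled counts per kilobase of exon. The length trend was removed with gene-wise offsets from a loess fit (span 0.5) of each library's log2 CPM deviation on log2 exonic length. Alternatives used DESeq2 1.42.0, limma 3.58.1, other scalings and filters, a block and each library left out. The fits were tested on simulated counts.

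Members had 589 to 13390 counts over the 4 libraries. Whether each library stands for its own pool of flies is not in the labels; p-values then measure only the spread between these 4 samples, which may be technical. Library pairs were not duplicates: the chi-square per gene was 226 for the *Nipped-A* RNAi pair and 21.4 for the *bam* RNAi pair, and Pearson correlations of log2 CPM were 0.954 and 0.972 within and 0.830 to 0.898 between groups. The members and lists were chosen with earlier results of these data known. Named genes are, for each subunit, up to 6 called genes per direction with the smallest adjusted p, the 3 most and 3 least abundant per length, the 2 with the largest and the 2 with the smallest log2 fold change, untested members, the S18 genes, *mRpS30*, *tko*, *bonsai*, and up to 3 called genes of each other list. The further genes of the lists of places in the ribosome, *mRpL27*, *mRpL50*, *mRpL34*, *mEFTu1*, *mRF1* and the named cell type markers fall outside this rule and were chosen to be named after their values were seen. No promoter or protein sequence was used here.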

Additional observations from a re-analysis of the deposited data

How the results depend on the processing

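The medians were below 0 in each fit, and the number of calls varied. The median of the 70 genes stayed between -0.65 and -0.53 in every fit except those with upper-quartile scaling (-0.79) and with the length trend removed (-0.20). Upper-quartile scaling moved the median of all genes by -0.21, so relative to all genes the members stood at -0.58 there as with TMM. The subunit medians were -0.81 (large) and -0.77 (small) with upper-quartile scaling and -0.20 for each with the length trend removed. The 12 falls (9 large, 3 small) became 36 (27 and 9) with upper-quartile scaling, 32 (24 and 8) with DESeq2, 19 (15 large) with a filter of 1 CPM and with robust moderation, 5 (2 large) with the replicate block and 1 (1 and 0) with the length trend removed. With RLE scaling, library size alone or a filter of 10 counts the large subunit had 5 calls. The share of all genes called with the replicate block is not given here. Leaving out 1 library gave 0 to 43 calls, 0 to 30 in the large and 0 to 13 in the small subunit. No member was called higher in any of these fits. The count of cytoplasmic ribosomal protein falls moved to 23 with the length trend removed. Without the 9 genes that share at least 10% of their exonic bases with another gene, an alternative chosen after seeing the data, 10 genes fell and the medians were -0.57 over all, -0.60 in the large and -0.46 in the small subunit.

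Signs turned in genes that the report does not call. With the length trend removed *mRpL33* had 0.11, *mRpL43* 0.36, *mRpL21* 0.00, *mRpL54* 0.45, *mRpS7* 0.13, *mRpS21* 0.22 and *mRpS18B* 0.35; the other members whose sign turned there were *mRpL10* (0.19), *mRpL4* (0.11), *mRpL32* (0.08), *mRpS10* (0.19), *mRpS23* (0.25), *mRpS26* (0.12) and *mRpS33* (0.07). *mRpL54* had 0.04 with RLE scaling and DESeq2, 0.05 with library size alone and 0.00 with a filter of 10 counts and with the block, and *mRpS18B* had 0.01 with RLE scaling, library size alone and DESeq2, while *mRpS18A* had -0.13 with upper-quartile scaling. Leaving out 1 library in turn gave -0.20 to 0.13 for *mRpL43*, -0.46 to 0.18 for *mRpL21*, -0.15 to 0.17 for *mRpL54*, -0.74 to 0.07 for *mRpS21*, -0.24 to 0.19 for *mRpS18B* and -0.02 to 0.21 for *mRpS18A*. The cause was not tested. The replicate numbers do not pair the libraries: the deviations of same-numbered libraries correlated at -0.0756 across genes.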
